A study of Mus musculus with 2 samples.

Results

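Cyclic nucleotide phosphodiesterases are the enzymes that break down cyclic AMP and cyclic GMP, and 10 of their genes were followed here across the cell classes of the irradiated and the mock-irradiated mouse brain. The 10 genes, Pde1a, Pde1b, Pde1c, Pde2a, Pde4b, Pde4d, Pde7b, Pde8b, Pde10a and Pde11a, were taken by symbol from the 27998 genes of the deposited matrices, and all 10 were found in both. The set was selected on measured values of these data: the UMIs of Pde1c in astrocytes and of Pde1a in precursors had been seen higher after irradiation. Those 2 contrasts, and the ratios of the other members in the same nuclei, are therefore given as descriptions with no test.

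Single-nucleus RNA sequencing (10x Genomics Chromium, 3′ chemistry) had been run on nuclei of frozen whole brains of wild-type C57BL/6 mice. The WBRT-28d library came from mice that received whole-brain irradiation of 2 Gy in each of 5 fractions, 10 Gy in total, and whose brains were taken 28 days later. The ShamRT-28d library came from mice that the labels call untreated and the study's methods call mock-irradiated, taken at the same time. By the methods, the mice were female C57BL/6J, 4 to 6 weeks old when bought, and the brains of 2 mice were pooled into each library. With 1 library per condition there is no replicate check, so no p-value is given, and a difference between libraries cannot be told apart from a difference between the pools of mice, the dissections or the library preparations.

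Each phosphodiesterase family has its own substrate preference and its own switch. Enzymes of the Pde1 family are turned on by calcium-bound calmodulin and cleave both cyclic AMP and cyclic GMP. Pde2a cleaves both and is stimulated by cyclic GMP, whereas the Pde4, Pde7 and Pde8 families are selective for cyclic AMP. Pde10a, which is known for its abundance in medium spiny neurons of the striatum, and Pde11a cleave both nucleotides. In neurons and glia these enzymes set how long and how far a cyclic nucleotide signal from receptors and cyclases spreads before it reaches its kinase, exchange factor or channel.

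The WBRT-28d library held 15986 barcodes and 68423922 UMIs (unique molecular identifiers, each counted as 1 transcript), and the ShamRT-28d library held 11469 barcodes and 45511469 UMIs. The median nucleus had 2565 UMIs in WBRT-28d and 2291 UMIs in ShamRT-28d. In all, 43 barcode sequences occurred in both libraries. After filtering and removal of called doublets, 13585 nuclei of WBRT-28d and 9998 of ShamRT-28d were kept, of which 11563 and 8745 nuclei fell into 1 of 16 classes by a gate on marker genes. A class was compared if each library gave it 50 nuclei or more, which left 11 classes. They were astrocyte-like (1274 nuclei of WBRT-28d and 661 of ShamRT-28d), oligodendrocyte precursor-like (OPC-like, 579 and 306), oligodendrocyte-like (1789 and 1888), microglia-like (622 and 547), endothelial-like (455 and 203), mural-like (180 and 89), fibroblast-like (90 and 75), glutamatergic (1517 and 1531), dentate granule-like (109 and 94), striatal spiny-like (500 and 217) and other GABA neurons (806 and 503). The fibroblast-like name is weak, because the median nucleus there held more UMIs of the astrocyte list, 10.5 in WBRT-28d and 12 in ShamRT-28d, than of its own, 6 and 8. The dentate granule-like name has the same weakness: its median nucleus held 5 UMIs of its own 4 markers in WBRT-28d and 6 in ShamRT-28d, against 6 UMIs of the OPC list in WBRT-28d and 10 of the list for other GABA neurons in ShamRT-28d.

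Values are UMIs summed over the nuclei of a class, given as counts per 1000000 UMIs of that class (CPM). Ratios are WBRT-28d over ShamRT-28d, with a 95% interval that covers counting error only. A member was compared in a class where its UMIs over both libraries came to 50 or more, and past the fold means a ratio of at least 1.5 either way. Because introns were counted, a long gene collects more UMIs than a short one, so levels are compared between classes and libraries but not between genes.

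By GENCODE vM21 on GRCm38, the members lie on 8 chromosomes and span 27019 bases (Pde1b) to 1503514 bases (Pde4d). Pde1a lies on chromosome 2 at 79834453 to 80129458 on the minus strand, Pde1c on chromosome 6 at 56069804 to 56569103 on the minus strand, and Pde4b on chromosome 4 at 102087543 to 102607259 on the plus strand. Among the other genes of the matrices, none overlaps a member on its own strand, while Pde8b and Pde10a each share bases with 1 gene on the other strand. Left out of this check was Gm45837, an overlapping gene to which GENCODE vM21 gives the deposited identifier of Pde2a. RefSeq (GRCm38.p6) lists 29 transcription starts for the 10 members, 1 to 5 for each. The cyclic AMP response element TGACGTCA is the DNA element bound by the CREB family, and TGACG is its half-site. The half-site was searched on both strands in windows of 250 bases before to 50 after each start. It occurred in 4 of the 29 windows, one each for Pde1a, Pde2a, Pde4b and Pde8b, against 20.8% of all 32851 windows of that length, and the whole element occurred in 0 of 29, against 1.79% of all windows. A pair of these windows is shown, for Pde1a, with the higher ratio in OPC-like nuclei, and for Pde4b, which led in oligodendrocyte-like nuclei, with the half-site, read on its other strand as CGTCA, in capitals. The Pde1a window is chr2:80038853-80039152 on the minus strand with the site 166 bases before the start, and the Pde4b window is chr4:102421305-102421604 on the plus strand with the site 34 bases before the start. UMIs summed per gene do not separate the starts, so no value below belongs to 1 start.
Pde1a: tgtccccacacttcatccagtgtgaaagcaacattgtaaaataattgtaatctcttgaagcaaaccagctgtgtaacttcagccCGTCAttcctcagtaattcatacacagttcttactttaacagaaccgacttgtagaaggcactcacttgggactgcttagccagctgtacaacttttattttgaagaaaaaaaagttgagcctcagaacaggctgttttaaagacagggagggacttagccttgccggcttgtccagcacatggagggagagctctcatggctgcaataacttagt
Pde4b: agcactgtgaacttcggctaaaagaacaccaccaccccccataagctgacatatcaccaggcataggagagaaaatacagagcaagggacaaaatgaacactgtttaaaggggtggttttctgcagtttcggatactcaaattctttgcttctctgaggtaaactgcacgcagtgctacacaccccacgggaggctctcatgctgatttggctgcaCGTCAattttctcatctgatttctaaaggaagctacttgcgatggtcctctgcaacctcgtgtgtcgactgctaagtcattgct

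Each member had a leading class, which several members shared, and it was mostly the same in the 2 libraries. The class with the highest CPM was the same in WBRT-28d and ShamRT-28d for 9 of the 10 members. Striatal spiny-like nuclei led for Pde1b, Pde1c, Pde2a, Pde7b and Pde10a. Mural-like nuclei, the pericytes and smooth muscle of vessels, led for Pde8b, at 3747 CPM in WBRT-28d and 3698 CPM in ShamRT-28d, 5.34 and 7.14 times the class that came second. Oligodendrocyte-like nuclei led for Pde4b, at 10682 CPM in WBRT-28d and 11088 CPM in ShamRT-28d, and OPC-like nuclei followed at 2340 and 2432 CPM. Other GABA neurons led for Pde11a, at 100.2 and 136.7 CPM, and fibroblast-like nuclei for Pde1a, at 1309 and 1203 CPM. The exception was Pde4d, which was highest in mural-like nuclei in WBRT-28d (1820 CPM) and in glutamatergic neurons in ShamRT-28d (2302 CPM).

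**Figure D1:**
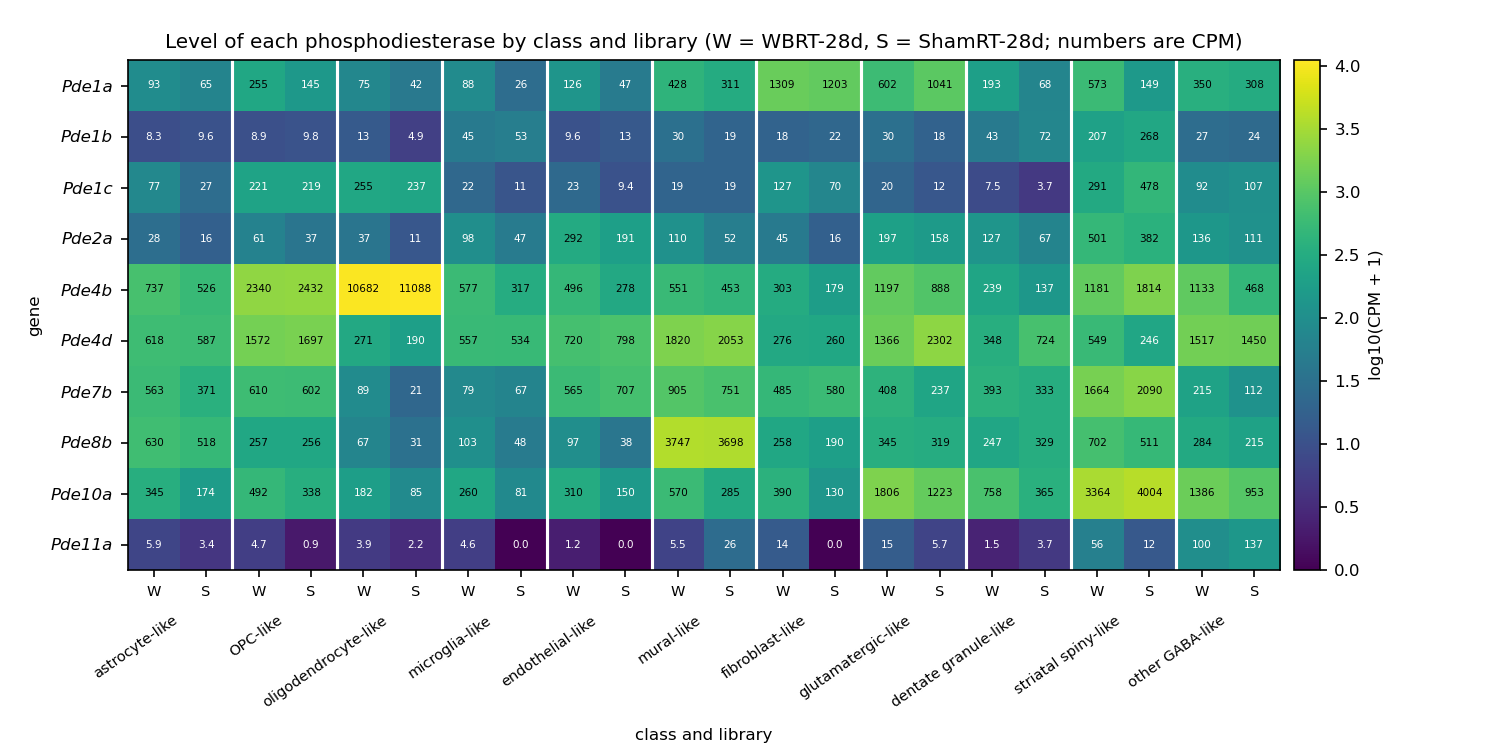
Level of the 10 genes in CPM (number in each box, colour as log10 of CPM + 1) in each of the 11 classes, with WBRT-28d to the left of ShamRT-28d. Rows can be read across classes, and the brightest boxes are Pde4b in oligodendrocyte-like nuclei (10682 CPM in WBRT-28d, 11088 CPM in ShamRT-28d).

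Neighbours in these orders were often not separated by counting. In the order of the 11 classes there are 10 neighbouring pairs for each gene and library, and the counting intervals overlapped in 4 to 9 of them. The first and the second class had intervals that overlapped for Pde1a and for Pde4d in ShamRT-28d, and for no other member in either library.

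Over the 11 classes, 90 pairs of a member and a class had enough UMIs to be compared. WBRT-28d was higher past the fold in 38 pairs (background over all genes 9.65% of gene and class pairs) and lower in 6 (6.83%), and the counting interval lay above 1 in 54 pairs and below 1 in 15. In the 7 glial, vascular and fibroblast-like classes, 25 of 52 pairs were higher (background 10.3%) and 0 lower (6.40%), while in the 4 neuronal classes 13 of 38 were higher (8.90%) and 6 lower (7.35%). In the plot of ratios by gene, all 6 values lower past the fold are in neurons.

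**Figure D2:**
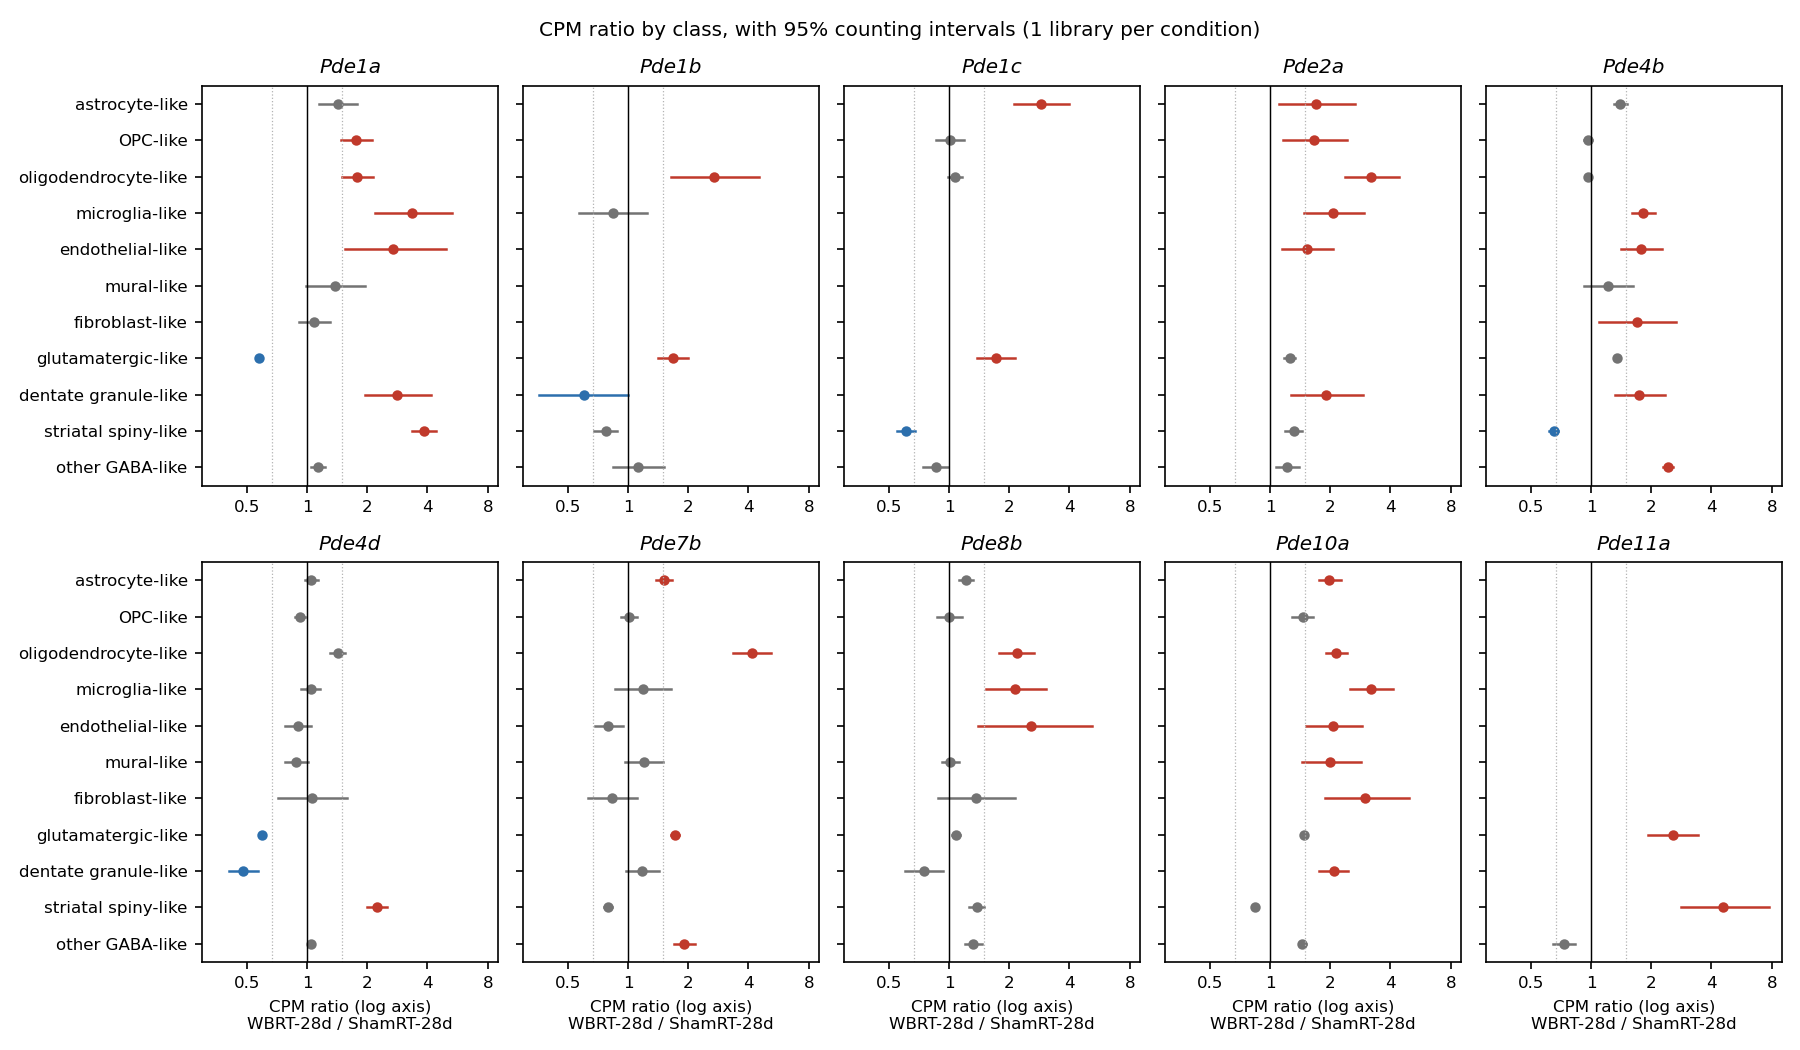
CPM ratio of WBRT-28d over ShamRT-28d (log axis) for each gene and class, with 95% counting intervals. Red points are at least 1.5-fold higher in WBRT-28d, blue points at least 1.5-fold lower, grey points lie between, dotted lines mark the fold, and classes with under 50 UMIs have no point. Pde1a spans 0.578 in glutamatergic neurons to 3.85 in striatal spiny-like nuclei.

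Transcripts of neurons turned up in every glial and vascular class, more so in WBRT-28d. To measure this, 8 neuronal genes that the gate did not use (among them Syt1, Camk2a, Rims1 and Ryr2) were summed. In astrocyte-like nuclei they stood at 15% of their level over the whole library in WBRT-28d and at 11.0% in ShamRT-28d. The shares were 26.3% and 17.0% in OPC-like nuclei, 17.8% and 7.54% in oligodendrocyte-like nuclei, 21.4% and 10.4% in microglia-like nuclei, 22.1% and 9.75% in endothelial-like nuclei, and 28.6% and 8.95% in mural-like nuclei. The same share of a member's own level over the library is called here the level predicted from free RNA, meaning RNA outside the nucleus that a droplet takes up. Any UMIs of the 8 genes that a class makes itself are counted in it too, so the prediction can be too high. In some pairs it was above the observed level. Of the 25 higher pairs in the 7 non-neuronal classes, 19 had at least 50% of their WBRT-28d level predicted in this way and 6 had less. Those 6 were Pde1c and Pde7b in astrocyte-like nuclei, Pde1a in OPC-like nuclei, Pde2a in microglia-like and in endothelial-like nuclei, and Pde10a in fibroblast-like nuclei.

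Read by class, the members' counts can be set beside those of all genes with at least 50 UMIs in the class. In astrocyte-like nuclei 4 of 8 members were higher and 0 lower, while 6.05% of 9908 genes were higher and 7.31% lower, and the median log2 ratio was 0.56 for the members and -0.03 for all genes. In OPC-like nuclei 2 of 8 were higher and 0 lower, against 6.33% and 5.77% of 7886 genes, with medians of 0.02 and 0.01. The closest values around the fold were 1.52 (Pde7b) inside and 1.43 (Pde1a) outside in astrocyte-like nuclei, and 1.66 (Pde2a) and 1.46 (Pde10a) in OPC-like nuclei. Since the members were chosen with these 2 contrasts in view, nothing is read from those shares.

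In oligodendrocyte-like nuclei 6 of 9 members were higher and 0 lower (background 12.6% higher and 4.60% lower), and in microglia-like nuclei 5 of 8 and 0 (12.3% and 6.21%). In endothelial-like nuclei the counts were 5 of 7 and 0 (12.7% and 7.48%), in mural-like nuclei 1 of 6 and 0 (19.6% and 9.96%), and in fibroblast-like nuclei 2 of 6 and 0 (11.1% and 8.69%). Among neurons, 4 of 10 members were higher and 2 lower in the glutamatergic class (7.31% and 7.49%), 4 and 2 of 8 in dentate granule-like nuclei (9.50% and 6.92%), 3 and 2 of 10 in striatal spiny-like nuclei (14.0% and 7.48%), and 2 and 0 of 10 in other GABA neurons (6.73% and 7.23%). In oligodendrocyte-like nuclei all 6 of the higher members were ones with at least 50% of the WBRT-28d level predicted from free RNA.

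Pde1c, which codes for a calmodulin-activated enzyme, was higher in WBRT-28d astrocytes. Astrocyte-like nuclei held 288 Pde1c UMIs in WBRT-28d, or 77.5 CPM, against 48 UMIs in ShamRT-28d, or 27.0 CPM, a ratio of 2.87 (2.11–3.98). Of 1274 astrocyte-like nuclei of WBRT-28d, 174 had a Pde1c UMI (13.7%, exact Clopper-Pearson interval 11.8–15.7%) and of 661 of ShamRT-28d, 36 had one (5.45%, 3.84–7.46%). With each nucleus thinned to 1000 UMIs the shares were 6.67% and 2.97%. Microglia-like nuclei, where the level was no higher than the free RNA prediction in WBRT-28d, gave 3.54% of 622 nuclei in WBRT-28d and 1.65% of 547 in ShamRT-28d, with median depths of 1908 and 1674 UMIs against 2654 and 2349 in astrocyte-like nuclei. The level predicted from free RNA was 20.8% of the observed astrocyte-like level in WBRT-28d and 38.4% in ShamRT-28d.

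Markers of the 3 classes with the most Pde1c were close between the libraries in astrocyte-like nuclei. The 10 oligodendrocyte markers summed to 833 CPM in WBRT-28d and 744 CPM in ShamRT-28d. The 8 OPC markers summed to 317 and 296 CPM, and the 8 striatal spiny markers to 139 and 136 CPM, with no marker of these 3 lists at 0 in either library. The 6 neuron markers were at 948 CPM in WBRT-28d and 671 CPM in ShamRT-28d, and the 10 endothelial markers at 164 and 74.9 CPM. The part of these transcripts in the Pde1c value was not tested.

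The Pde1c ratio lay above 1 in every astrocyte subset made from markers. Nuclei with at least 2 UMIs of the Gfap program (Gfap, Myoc, Tnc, Thbs4 and Vim, genes of fibrous and reactive astrocytes) gave 68.7 CPM in WBRT-28d and 29.1 CPM in ShamRT-28d, a ratio of 2.36 (1.25–4.84), and those under 2 UMIs gave 79.9 and 26.4 CPM, a ratio of 3.03 (2.13–4.43). Nuclei with more UMIs of telencephalic markers had a ratio of 2.16 (1.21–4.10), those with more non-telencephalic markers 3.18 (1.97–5.44), and those with as many of one as of the other 2.94 (1.65–5.62). The intervals of the subsets overlap, and whether the subsets differ was not tested. The Gfap-program subset made up 19.9% of astrocyte-like nuclei in WBRT-28d and 21.9% in ShamRT-28d.

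In 5 other classes Pde1c had enough UMIs to be compared, and it passed the fold in 2 of them. OPC-like nuclei had 221 CPM in WBRT-28d and 219 CPM in ShamRT-28d, a ratio of 1.01 (0.865–1.18). Oligodendrocyte-like nuclei had 255 and 237 CPM, a ratio of 1.08 (0.991–1.17). Striatal spiny-like nuclei were lower in WBRT-28d, at 291 CPM against 478 CPM in ShamRT-28d, a ratio of 0.608 (0.550–0.673), and their median depth was 4009 UMIs in WBRT-28d and 6078 in ShamRT-28d. Other GABA neurons had 92.2 and 107 CPM (0.861, 0.746–0.994), and glutamatergic neurons had 19.9 and 11.6 CPM (1.72, 1.39–2.13), a ratio that was 1.33 with doublets called by the automatic threshold. Microglia-like (29 and 11 UMIs), endothelial-like (19 and 3), fibroblast-like (28 and 13), mural-like (7 and 3) and dentate granule-like nuclei (5 and 2) stayed under the minimum and were not compared.

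Pde1a, the second calmodulin-activated member, was higher in WBRT-28d precursors. OPC-like nuclei held 546 Pde1a UMIs in WBRT-28d, or 255 CPM, against 162 UMIs in ShamRT-28d, or 145 CPM, a ratio of 1.76 (1.48–2.11). Of 579 OPC-like nuclei of WBRT-28d, 241 had a UMI (41.6%, 37.6–45.8%), and of 306 of ShamRT-28d, 87 had one (28.4%, 23.4–33.8%), with shares of 17.6% and 9.70% after thinning. In microglia-like nuclei, where free RNA predicted 99.7% or more of the level, the shares were 11.7% of WBRT-28d nuclei and 4.94% of ShamRT-28d nuclei. The predicted free RNA level was 42.5% of the OPC-like level in WBRT-28d against 59.0% in ShamRT-28d. With it subtracted from both, the ratio was 2.47.

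Markers of other classes were unequal between the libraries in these precursors. The 9 mural markers summed to 65.4 CPM in WBRT-28d and 14.3 CPM in ShamRT-28d, with Kcnj8 and Notch3 at 0 in ShamRT-28d, and the 10 endothelial markers to 227 and 56.3 CPM, with Cdh5 at 0 in ShamRT-28d. The 6 glutamatergic markers summed to 78.4 and 53.6 CPM, and the 8 fibroblast markers, of the class richest in Pde1a, to 15.4 and 15.2 CPM. Their part in the Pde1a value was not tested.

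Most OPC-like nuclei held markers of commitment to the oligodendrocyte lineage (Bcas1, Enpp6, Gpr17, Tmem2, Itpr2 and Bmp4). Of these markers, Gpr17 is also an OPC marker of the gate, so the share of nuclei holding them is not independent of how the nuclei were chosen. Nuclei with at least 2 UMIs of those markers, 81.5% of the class in WBRT-28d and 80.1% in ShamRT-28d, had 256 CPM in WBRT-28d and 157 CPM in ShamRT-28d, a ratio of 1.63 (1.36–1.97). The 45 and 24 nuclei with none of them held 30 UMIs in WBRT-28d against 1 UMI in ShamRT-28d, a ratio of 11.9 with an interval of 1.98–486 that leaves its size unknown. Nuclei gated as immature or dividing, a class meant to hold another kind of precursor, numbered 7 in WBRT-28d against 52 in ShamRT-28d. The name is weak in WBRT-28d, where the median nucleus held 4 UMIs of its own list against 6 of the list for other GABA neurons. The nuclei of this class held 4 Pde1a UMIs in WBRT-28d and 6 in ShamRT-28d, too few to compare.

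Neurons gave Pde1a both its highest and its lowest ratio. In striatal spiny-like nuclei it stood at 573 CPM in WBRT-28d and 149 CPM in ShamRT-28d, a ratio of 3.85 (3.35–4.44). The 434 and 209 of those nuclei in a cluster also named striatal spiny had less Pde1a, 326 and 55.6 CPM (5.87, 4.68–7.44). Both class levels thus rest in part on nuclei outside that cluster. In glutamatergic neurons it stood at 602 CPM in WBRT-28d and 1041 CPM in ShamRT-28d, a ratio of 0.578 (0.561–0.596). Both values varied within their class. Spiny-like nuclei with more Drd1 UMIs, the receptor of the direct striatal pathway, had 796 CPM in WBRT-28d and 74.9 CPM in ShamRT-28d (10.6, 7.76–15), and those with more Drd2, Adora2a and Gpr6 UMIs, of the indirect pathway, had 263 and 63.6 CPM (4.13, 3.01–5.78). Nuclei with as many of one as of the other were 43.8% of the class in WBRT-28d against 25.8% in ShamRT-28d, and had 701 and 513 CPM (1.37, 1.14–1.65). Over the 6 clusters that held at least 50 glutamatergic nuclei of each library, the Pde1a ratio ran from 0.624 to 1.39 and was above 1 in 1 of them. The make-up of the class differed between the libraries. Of those 6 clusters, the one with the most Pde1a in ShamRT-28d (1252 CPM in WBRT-28d, 1822 CPM in ShamRT-28d) held 110 of 1517 glutamatergic nuclei in WBRT-28d against 349 of 1531 in ShamRT-28d, and its part in the class ratio was not tested.

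**Figure D3:**
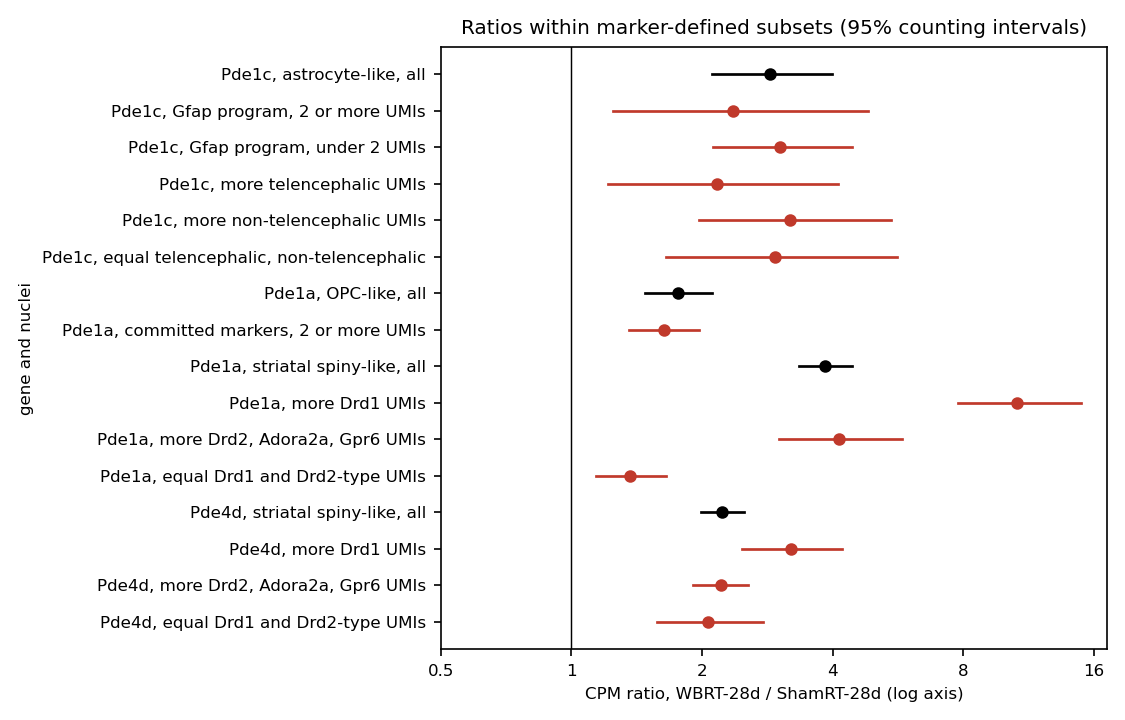
CPM ratio of WBRT-28d over ShamRT-28d (log axis) for Pde1c, Pde1a and Pde4d in a whole class (black) and in nuclei of that class split by marker UMIs (red), with 95% counting intervals. Pde1c lies above 1 in each astrocyte subset, from 2.16 to 3.18, and Pde1a in spiny-like nuclei runs from 1.37 to 10.6.

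In the other non-neuronal classes Pde1a either did not pass the fold or passed it with most of its WBRT-28d level predicted from free RNA. Astrocyte-like nuclei had 93.4 CPM in WBRT-28d and 65.3 CPM in ShamRT-28d (1.43, 1.16–1.78), just outside the fold. The 1069 and 473 of them in the larger astrocyte cluster had 46.1 and 27.0 CPM. That ratio, 1.71 (1.17–2.56), was past the fold, and its predicted share is not given here. A second astrocyte cluster held 34 and 6 Pde1a UMIs, under the minimum. By subset the ratio was 3.0 in nuclei with more telencephalic markers, 3.62 in those with more non-telencephalic markers and 1.04 in those with equal numbers. Oligodendrocyte-like nuclei had 74.6 and 41.8 CPM (1.79), with 98.4% and 90.5% predicted, and microglia-like nuclei 88.3 and 26.5 CPM (3.34), with 99.7% and 198% predicted. Endothelial-like nuclei had 126 and 46.9 CPM (2.68), with 72.2% and 104% predicted. Mural-like (428 and 311 CPM, 1.38) and fibroblast-like nuclei (1309 and 1203 CPM, 1.09) did not pass the fold, and their predicted shares were 27.6% or less. Among the remaining neurons, dentate granule-like nuclei had 193 CPM in WBRT-28d and 68.5 CPM in ShamRT-28d (2.82, 1.94–4.18), a ratio past the fold that ran from 1.77 to 4.71 under the other settings, and other GABA neurons had 350 and 308 CPM (1.14, 1.05–1.23).

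**Figure D4:**
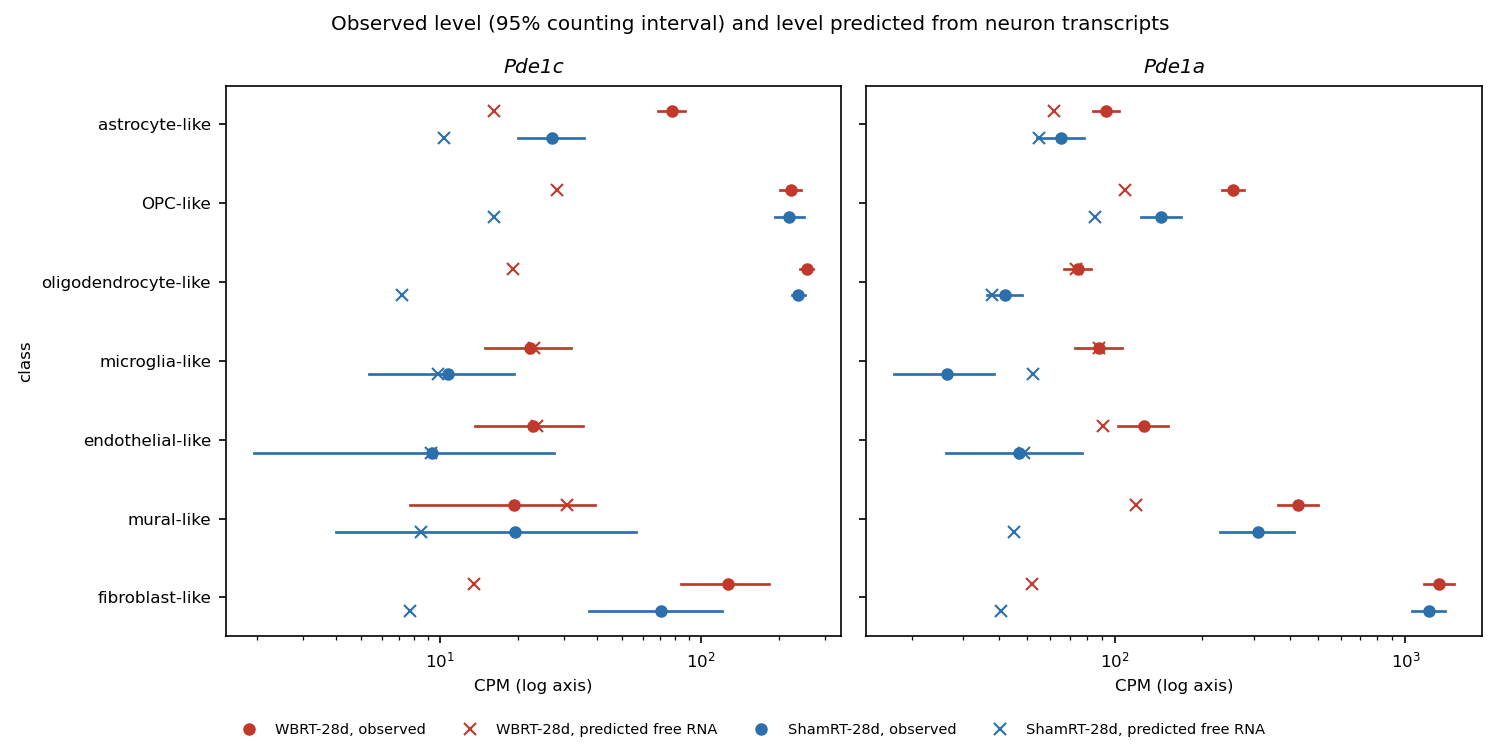
Observed level of Pde1c and Pde1a (circles, CPM on a log axis, with 95% counting intervals) and the level predicted from 8 neuronal genes (crosses) in the 7 non-neuronal classes, with WBRT-28d in red above ShamRT-28d in blue. Pde1c in astrocyte-like nuclei (77.5 and 27.0 CPM) lies to the right of its predictions, while Pde1a in oligodendrocyte-like and microglia-like nuclei of WBRT-28d (74.6 and 88.3 CPM) lies on them.

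Pde1b, the third member of the calmodulin-activated family, was a gene of spiny neurons. It stood at 207 CPM in WBRT-28d and 268 CPM in ShamRT-28d in striatal spiny-like nuclei (0.773, 0.680–0.880). Microglia-like nuclei held 58 and 54 UMIs (44.5 and 52.9 CPM, 0.841, 0.571–1.24), with only 18.1% and 6.52% predicted from free RNA. Glutamatergic neurons had 29.8 CPM in WBRT-28d and 17.7 CPM in ShamRT-28d (1.68, 1.42–2.00) and dentate granule-like nuclei 43.3 and 72.2 CPM (0.60, 0.358–0.996), on 29 and 39 UMIs. Oligodendrocyte-like nuclei had 13.1 and 4.89 CPM (2.68, 1.64–4.50), about 51% of it predicted in each library. In the other GABA neurons the ratio was 1.13, and in the other 5 classes the gene was under the minimum.

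Pde2a, the enzyme that cyclic GMP switches on to cleave cyclic AMP, marked spiny neurons and endothelium. Striatal spiny-like nuclei had 501 CPM in WBRT-28d and 382 CPM in ShamRT-28d (1.31, 1.19–1.45). Endothelial-like nuclei held 244 and 61 UMIs, or 292 and 191 CPM (1.53, 1.15–2.06), with 11.8% and 6.04% predicted from free RNA. Microglia-like nuclei had 97.5 CPM in WBRT-28d and 47.1 CPM in ShamRT-28d (2.07, 1.48–2.95), with 34.3% and 26.2% predicted. In astrocyte-like (1.7), OPC-like (1.66) and oligodendrocyte-like nuclei (3.21) the ratios were past the fold, with 67.6% to 84.6% of the WBRT-28d level predicted. Dentate granule-like nuclei had 127 and 66.6 CPM (1.91, 1.28–2.9). When nuclei were thinned to 1000 UMIs the ratio was 0.936 in astrocyte-like and 0.997 in dentate granule-like nuclei.

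Pde4b and Pde4d code for cyclic AMP-specific enzymes that rolipram inhibits. Pde4b was the member of the oligodendrocyte lineage, and there the libraries were close: the ratio was 0.963 (0.952–0.975) in oligodendrocyte-like and 0.962 (0.918–1.01) in OPC-like nuclei. In oligodendrocyte-like nuclei Pde4b was found in 99.2% of WBRT-28d nuclei, and 3.89% and 1.59% of its level was predicted from free RNA. Among neurons it was higher in other GABA neurons, at 1133 CPM in WBRT-28d and 468 CPM in ShamRT-28d (2.42, 2.28–2.57). That ratio was smaller under most other ways of choosing the nuclei, at 1.56 with doublets called by the automatic threshold, and 1.77 and 1.41 within the pair of clusters that held at least 50 such nuclei of each library. In other GABA neurons the 10 markers of oligodendrocytes, the class richest in Pde4b, summed to 1097 CPM in WBRT-28d and 490 CPM in ShamRT-28d. The part of these transcripts in the Pde4b value was not tested. In striatal spiny-like nuclei Pde4b was lower, at 1181 and 1814 CPM (0.651, 0.619–0.685), close to the limit of the fold. Dentate granule-like nuclei had 239 and 137 CPM (1.75, 1.32–2.33) and glutamatergic neurons 1197 and 888 CPM (1.35, 1.31–1.38). Microglia-like (577 and 317 CPM, 1.82), endothelial-like (496 and 278 CPM, 1.78) and fibroblast-like nuclei (303 and 179 CPM, 1.7) passed the fold, with 86.4% or more of the WBRT-28d level predicted. Astrocyte-like (737 and 526 CPM, 1.40) and mural-like nuclei (551 and 453 CPM, 1.22) did not.

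Pde4d was lower in WBRT-28d in the glutamatergic and dentate granule-like classes and higher in the spiny-like class. Glutamatergic neurons had 1366 CPM in WBRT-28d and 2302 CPM in ShamRT-28d (0.594, 0.582–0.605), and dentate granule-like nuclei 348 and 724 CPM (0.481, 0.407–0.567). Striatal spiny-like nuclei had 549 CPM in WBRT-28d and 246 CPM in ShamRT-28d (2.23, 1.99–2.50), and the ratio was above 2 in each of the Drd1, Drd2-type and equal subsets (3.21, 2.21 and 2.07). Within 6 clusters of glutamatergic nuclei the ratio ran from 0.731 to 1.09, so that no cluster alone reached the value of the whole class. The cluster noted above for Pde1a, which held 110 of 1517 glutamatergic nuclei in WBRT-28d against 349 of 1531 in ShamRT-28d, was also rich in Pde4d, at 3657 CPM in WBRT-28d and 4307 CPM in ShamRT-28d, and this unequal make-up was likewise not tested. In the non-neuronal classes Pde4d did not pass the fold: 618 and 587 CPM in astrocyte-like (1.05), 1572 and 1697 CPM in OPC-like (0.926), 1820 and 2053 CPM in mural-like (0.887), 557 and 534 CPM in microglia-like (1.04) and 720 and 798 CPM in endothelial-like nuclei (0.902). The highest of these ratios, 1.43 (1.31–1.55), was in oligodendrocyte-like nuclei, where 66.9% of the WBRT-28d level was predicted from free RNA.

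Pde7b and Pde8b code for cyclic AMP-specific enzymes that rolipram does not block. Pde7b in astrocyte-like nuclei stood at 563 CPM in WBRT-28d (2091 UMIs) and 371 CPM in ShamRT-28d (659 UMIs), a ratio of 1.52 (1.39–1.66) just inside the fold, with 12.1% and 9.62% predicted from free RNA. It was 1.39 to 1.67 in the astrocyte subsets split by region. Glutamatergic neurons (408 and 237 CPM, 1.72) and other GABA neurons (215 and 112 CPM, 1.91) were higher in WBRT-28d as whole classes. In other GABA neurons the ratio did not pass the fold in nuclei thinned to 1000 UMIs (1.18) or in classes from clusters (1.36), and it was 1.59 and 0.894 within clusters. Within the 5 glutamatergic clusters that had at least 50 Pde7b UMIs, the ratio ran from 0.857 to 2.61. In contrast, striatal spiny-like nuclei had 1664 and 2090 CPM (0.796, 0.761–0.833). The member's largest ratio, 4.16 (3.35–5.21) in oligodendrocyte-like nuclei, rested on 89.0 and 21.4 CPM, of which 91.1% and 115% was predicted from free RNA. OPC-like (610 and 602 CPM, 1.01), mural-like (905 and 751 CPM, 1.2), endothelial-like (565 and 707 CPM, 0.80), fibroblast-like (0.836), microglia-like (1.19) and dentate granule-like nuclei (1.18) did not pass the fold.

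Pde8b differed little where it was abundant. The ratio was 1.01 (0.918–1.12) in mural-like nuclei, on 1367 and 571 UMIs, 1.22 (1.13–1.31) in astrocyte-like nuclei, at 630 and 518 CPM, and 1.0 (0.867–1.16) in OPC-like nuclei, at 257 and 256 CPM. It passed the fold only in 3 classes where it was scarce, at 67.4 and 31.0 CPM in oligodendrocyte-like (2.18), 103 and 48.0 CPM in microglia-like (2.14) and 97.0 and 37.5 CPM in endothelial-like nuclei (2.58), with 77.4% to 98.4% of the WBRT-28d level predicted from free RNA. The neuronal ratios ran from 0.749 in dentate granule-like to 1.38 in striatal spiny-like nuclei, and the fibroblast-like ratio was 1.36.

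Pde10a and Pde11a code for enzymes that cleave both nucleotides. Pde10a in striatal spiny-like nuclei stood at 3364 CPM in WBRT-28d and 4004 CPM in ShamRT-28d (0.840, 0.813–0.868), and a UMI was found in 91.4% and 92.6% of those nuclei. Glutamatergic (1806 and 1223 CPM, 1.48) and other GABA neurons (1386 and 953 CPM, 1.45) lay just outside the fold, and dentate granule-like nuclei (758 and 365 CPM, 2.08) inside it. In 6 of the 7 non-neuronal classes the ratio was past the fold: 1.98 in astrocyte-like, 2.14 in oligodendrocyte-like, 3.19 in microglia-like, 2.07 in endothelial-like, 2.00 in mural-like and 3.0 in fibroblast-like nuclei. The level predicted from free RNA was 39.3% of the WBRT-28d level in fibroblast-like nuclei and 52.8% to 119% in the other 5 classes. OPC-like nuclei had 492 and 338 CPM (1.46, 1.29–1.64).

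Pde11a had few UMIs outside neurons and was compared only in 3 neuronal classes. Other GABA neurons had 100.2 CPM in WBRT-28d and 136.7 CPM in ShamRT-28d (0.733, 0.643–0.836). Striatal spiny-like nuclei held 153 and 19 UMIs, or 55.9 and 12.3 CPM (4.56, 2.82–7.78), and glutamatergic neurons 155 and 75 UMIs, or 14.6 and 5.70 CPM (2.56, 1.93–3.42). The glutamatergic value turned with the way the class was made: it was 0.510 when whole clusters were used and 0.891 in gated nuclei of glutamatergic clusters.

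The genes around the members in the cyclic nucleotide pathway were taken as 7 lists by function, 70 genes in all: other phosphodiesterases, adenylyl cyclases, guanylyl cyclases, subunits of protein kinase A, other effectors, calmodulin with calcium partners, and targets and anchors. In astrocyte-like nuclei 51 of the 70 were compared, 8 were higher past the fold and 1 was lower, with a median log2 ratio of 0.19, beside 6.05% higher, 7.31% lower and a median of -0.03 over all genes compared there. Among the higher ones were the phosphodiesterases Pde8a (65.9 and 35.5 CPM, 1.86) and Pde3b (30.9 and 18.6 CPM, 1.67), the calmodulin-stimulated cyclase Adcy1 (1.61), the kinase regulatory subunits Prkar1b (1.77) and Prkar2b (1.77), the calmodulin gene Calm3 (1.56) and the calmodulin kinase Camk4 (47.4 and 23.6 CPM, 2.00). For Pde8a the level predicted from free RNA was 31.3% of that observed in WBRT-28d and 40.8% in ShamRT-28d. It was 69.2% and 73.3% for Pde3b, and 47.4% and 75.0% for Adcy1. The predicted shares of the other higher genes are not given here. The lower one was Pde3a, a phosphodiesterase inhibited by cyclic GMP, at 14.0 CPM in WBRT-28d and 31.0 CPM in ShamRT-28d (0.452, 0.303–0.672). No gene of the targets and anchors passed the fold, of 15 compared.

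In OPC-like nuclei 48 of the 70 were compared, 2 were higher and 1 was lower, with a median log2 ratio of 0.18, beside 6.33%, 5.77% and 0.01 over all genes compared there. The shares of the lists thus lay below those of all genes in both directions. Among the higher ones was Rapgef4, an exchange factor that cyclic AMP opens, at 128 CPM in WBRT-28d and 84.0 CPM in ShamRT-28d (1.52, 1.2–1.95). The bicarbonate-sensitive cyclase Adcy10 had 22.9 and 38.4 CPM (0.596, 0.387–0.919). No other phosphodiesterase passed the fold there, of 6 compared.

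The genes whose level ran most like that of 3 members across the 11 classes of both libraries (22 points, 12935 genes) were found by Pearson correlation of log2(CPM + 1). They were Greb1l (0.85), Azin2 and Cxadr (both 0.83 or more) for Pde1a, Zfp462 (0.83), Gm42695 (0.76) and Srgap1 (0.76) for Pde1c, and Cacna2d3 (0.95), Ptpn5 (0.93) and Fras1 (0.93) for Pde10a. The 22 points share libraries and classes, so the values describe these data only.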

How the data were processed

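The deposited matrices hold whole-number UMI counts per gene and nucleus, which the authors made with Cell Ranger 5.0.0 (from the matrix header) on a pre-mRNA form of the mm10 genome, so that intronic reads were counted. Seurat 3.0 and R 3.5.3 are listed in the submitters' notes on processing. Nothing had been normalized, and every deposited barcode was read. Nuclei with under 500 detected genes or over 5% mitochondrial UMIs were left out, as were doublets, taken as the highest Scrublet scores (scanpy 1.11.5) at a rate of 0.8% per 1000 barcodes, with all nuclei tied at the limiting score included (2083 in WBRT-28d, 1039 in ShamRT-28d).

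No cell annotation was used here, so names were rebuilt, and shares or values may differ from the study's for that reason. For each nucleus the share of UMIs in each marker list was divided by the median share among nuclei with at least 50% of the list detected. A class was given where this value was at least 0.33, at least 2 times that of the next class and rested on at least 2 markers. These limits were set after seeing the data. Moving them by 10% changed the class of 914 nuclei in WBRT-28d and 433 in ShamRT-28d. The leading 10 genes were listed for each class except immature or dividing nuclei and the neurons that the gate did not divide further. None of these lists held a marker of another class. Those of astrocyte-like and oligodendrocyte-like nuclei held 0 of their own markers. Pde2a was placed by its symbol, because GENCODE vM21 gives its deposited identifier to an overlapping gene.

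UMIs were summed per class and library and scaled to CPM. Ratios carry an exact conditional binomial interval, levels an exact Poisson interval and shares a Clopper-Pearson interval, all for counting error only. The script was tested on simulated counts. The members, gene lists and marker lists were chosen with earlier results of these data known. Some genes of the lists are not reported by name here. Named pathway genes were those past 1.5-fold in astrocyte-like or OPC-like nuclei, the members' closest relatives, and the 3 genes most like Pde1a, Pde1c and Pde10a. As alternatives, doublet and quality filters, the gate, clusters (32, made without phosphodiesterase genes), scaling, thinning to 1000 UMIs and subtraction of predicted free RNA were varied. Python 3.11.15, numpy 2.4.6, scipy 1.17.1 and pandas 2.3.3 were used.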

Additional observations from a re-analysis of the deposited data

Results flagged for a closer look

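Of the 10 members, 5 were past 1.5-fold in opposite directions in different classes. In none of them was the difference tested, since each condition has 1 library. The share of all genes past the fold in opposite directions is not given here, so nothing is read from this count. Among the non-neuronal ratios below, only Pde1c in astrocyte-like and Pde1a in OPC-like nuclei had under 50% of the WBRT-28d level predicted from free RNA. For Pde1a the ratio of WBRT-28d over ShamRT-28d was 1.76 in OPC-like, 1.79 in oligodendrocyte-like, 3.34 in microglia-like, 2.68 in endothelial-like, 2.82 in dentate granule-like and 3.85 in striatal spiny-like nuclei, against 0.578 in glutamatergic neurons. For Pde1b it was 2.68 in oligodendrocyte-like nuclei and 1.68 in glutamatergic neurons, against 0.60 in dentate granule-like nuclei. For Pde1c it was 2.87 in astrocyte-like nuclei and 1.72 in glutamatergic neurons, against 0.608 in striatal spiny-like nuclei. For Pde4b it was 1.82 in microglia-like, 1.78 in endothelial-like, 1.7 in fibroblast-like and 1.75 in dentate granule-like nuclei and 2.42 in other GABA neurons, against 0.651 in striatal spiny-like nuclei. For Pde4d it was 2.23 in striatal spiny-like nuclei, against 0.594 in glutamatergic neurons and 0.481 in dentate granule-like nuclei. Striatal spiny-like nuclei that fell in clusters named the same way were 86.8% of the class in WBRT-28d against 96.3% in ShamRT-28d. The part of this make-up in the ratios was not tested.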

How the results depend on the processing

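Of the 44 ratios past the fold, the 42 other than Pde1c in astrocyte-like and Pde1a in OPC-like nuclei were recomputed under 11 other settings, 432 values in all: 361 stayed within their counting interval, 64 left it without crossing 1 and 7 crossed 1. Of these 42, 21 stayed past the fold under every setting that gave a value. That number includes ratios with no value once free RNA was subtracted, among them Pde1a in microglia-like and endothelial-like and Pde7b in oligodendrocyte-like nuclei. Their predicted level in ShamRT-28d was above the observed one. The other 21 no longer passed the fold under at least 1 setting. With no free RNA subtracted, those that no longer passed it included Pde1b in dentate granule-like (0.844 thinned) and glutamatergic neurons (1.46 from clusters). They also included Pde1c in striatal spiny-like nuclei (0.681 from clusters) and Pde2a in endothelial-like nuclei (1.28 from clusters). Pde4b no longer passed in microglia-like nuclei (1.23 with doublets kept) and endothelial-like nuclei (1.19 thinned). The same held for Pde4d in dentate granule-like nuclei (0.671 from clusters) and Pde7b in astrocyte-like nuclei (1.34 thinned). Pde1a in microglia-like nuclei was 1.88 with doublets kept, and in striatal spiny-like nuclei 5.87 in same-class clusters. Pde1c in astrocyte-like nuclei ran from 2.16 to 3.69. Pde1a in OPC-like nuclei ran from 1.61 to 1.96, except for 2.47 with predicted free RNA subtracted and 11.9 in nuclei without committed markers (30 UMIs in WBRT-28d and 1 in ShamRT-28d). Pairs of a member and a class past the fold numbered 44 and 32 to 50 under the other settings, but 23 at a fold of 2. Pathway genes past the fold in astrocyte-like and OPC-like nuclei numbered 12, and 19 at a minimum of 20 UMIs. The shares of all genes under those other settings are not given here, so nothing is read from how these counts moved. With the lowest glial or vascular CPM as the free RNA level, the predicted share in WBRT-28d was 24.8% (20.8% from neuron genes) for Pde1c in astrocyte-like and 29.3% (42.5%) for Pde1a in OPC-like nuclei. The ratios that crossed 1 were Pde11a in glutamatergic neurons (0.510 from clusters, 0.891 in gated nuclei of glutamatergic clusters), thinned Pde2a in astrocyte-like (0.936) and dentate granule-like nuclei (0.997), and, with free RNA subtracted, Pde1a (0.310) and Pde8b (0.108) in oligodendrocyte-like and Pde10a in endothelial-like nuclei (0.727). The cause was not tested. The count of member and class pairs was not recomputed with free RNA subtracted, which has no value in neuronal classes. The automatic doublet threshold, the removal of nuclei over 20000 UMIs, the restriction to same-class clusters and the equal-marker subsets were chosen after seeing the data. No paired analysis was possible because each condition has 1 library. A pair under 50 UMIs could not be compared at this depth.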

Other observations

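Relatives of the 10 members also differed in their leading class. Pde3b, an enzyme inhibited by cyclic GMP, was highest in microglia-like nuclei, at 1540 CPM in WBRT-28d and 1726 CPM in ShamRT-28d (ratio 0.892). Its relative Pde3a was a gene of mural-like nuclei, at 970 and 479 CPM (2.02, 1.57–2.64). Pde5a, the cyclic GMP-specific enzyme of vascular smooth muscle, stood at 389 and 350 CPM in mural-like nuclei (1.11) and at 40.1 and 101 CPM in other GABA neurons (0.397, 0.331–0.474).

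Pde8a, the relative of Pde8b, was highest in oligodendrocyte-like nuclei, at 759 CPM in WBRT-28d and 786 CPM in ShamRT-28d (0.966), and was scarce in glutamatergic neurons, at 27.0 and 7.68 CPM (3.52, 2.79–4.46). In those neurons the 10 oligodendrocyte markers summed to 659 CPM in WBRT-28d and 310 CPM in ShamRT-28d. The part of these transcripts in the Pde8a ratio was not tested. Pde9a, which is specific for cyclic GMP, had 59.5 and 21.9 CPM in striatal spiny-like nuclei (2.71, 1.87–4.05) and 60.3 and 56.9 CPM in astrocyte-like nuclei (1.06). Pde7a and Pde4a differed little: of 9 classes with enough UMIs Pde7a passed the fold in endothelial-like nuclei alone (102 and 59.4 CPM, 1.71, 1.03–2.98), and Pde4a in none of 8.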
